A study of Homo sapiens with 16 samples.

Results

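Long noncoding RNAs (lncRNAs) with a known history in prostate cancer were followed in LNCaP cells, an established human prostate cancer line that depends on androgens for growth. The set comprised 8 gene symbols, PCA3, PCGEM1, DRAIC, PCAT1, PCAT6, PCAT14, MALAT1 and NEAT1. All 8 were found among the 60642 gene symbols of the deposited expression table, and 0 were absent. Every library came from the same line (clone FGC) and the same preculture, which ran for 72 h in 5% fetal bovine serum and then for 48 h in 5% charcoal-stripped serum, depleted of steroids. Treatment lasted 48 h and combined dihydrotestosterone (DHT, 10 nM) or its solvent ethanol with an antiandrogen (10 µM) or its solvent DMSO. The antiandrogens were bicalutamide (BIC), enzalutamide (ENZ) and apalutamide (APA). ENZ and APA share a diarylthiohydantoin scaffold, in which APA carries a cyclobutyl ring and a pyridine ring where ENZ carries a gem-dimethyl group and a benzene ring, and BIC is a nonsteroidal propanamide. The resulting 8 groups were VEH (both solvents) and DHT without antagonist, BIC.VEH, ENZ.VEH and APA.VEH with antagonist alone, and BIC.DHT, ENZ.DHT and APA.DHT with antagonist and hormone, each with 2 replicate libraries, or 16 libraries in all. The labels call the replicates biological and do not say what was repeated, and p-values measure the spread between these libraries.

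Long noncoding RNAs are transcribed and processed much like messenger RNAs but encode no known protein, and many are restricted to 1 tissue. In the prostate, androgens switch genes on and off through a ligand-activated transcription factor that binds the androgen response element, and antiandrogens compete with the hormone for that factor. PCA3 and PCGEM1 are transcripts largely specific to prostate, and PCA3 in urine is used as a marker of prostate cancer. DRAIC was named for its loss in androgen-independent cells, and PCAT1, PCAT6 and PCAT14 were named as prostate cancer associated transcripts. MALAT1 and NEAT1 differ from these in being abundant in most tissues and in staying in the nucleus. MALAT1 gathers at nuclear speckles, which hold splicing factors, and NEAT1 is the scaffold of paraspeckles.

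Promoter windows running from 250 bases before to 50 bases after an annotated start (RefSeq, GRCh38.p14) were at hand for 5 of the 8 genes, and NEAT1, PCAT1 and PCAT14 had none. They were searched on both strands for the letters AGAACA, the repeated core of the androgen response element, which read TGTTCT from the opposite strand. Of 35116 windows of this length in the annotation, 5192 (14.8%) held these letters. Among the lncRNAs, the window of PCGEM1 held TGTTCT 191 bases before the start, and the second of the MALAT1 windows held it 41 bases before the start of its transcript. The windows of PCA3, DRAIC and PCAT6 and the first window of MALAT1 held no match. KLK3, the androgen-induced gene used as a reference, held AGAACA 170 bases before its start. A match is only a description of letters. Both lncRNA windows with a match are printed in lower case with the matched letters in capitals, followed by those of DRAIC and PCAT6, which stand at contrasting base composition and hold none. The windows lie on the plus strand at chr2:192749595-192749894 (PCGEM1), chr11:65498795-65499094 (MALAT1), chr15:69561470-69561769 (DRAIC) and chr1:202810704-202811003 (PCAT6).
PCGEM1: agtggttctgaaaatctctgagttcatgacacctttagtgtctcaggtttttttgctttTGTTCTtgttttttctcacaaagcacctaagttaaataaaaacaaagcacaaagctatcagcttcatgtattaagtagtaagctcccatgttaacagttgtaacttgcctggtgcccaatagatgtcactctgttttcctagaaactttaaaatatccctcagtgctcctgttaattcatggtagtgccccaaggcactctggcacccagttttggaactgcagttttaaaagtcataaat
MALAT1, second window: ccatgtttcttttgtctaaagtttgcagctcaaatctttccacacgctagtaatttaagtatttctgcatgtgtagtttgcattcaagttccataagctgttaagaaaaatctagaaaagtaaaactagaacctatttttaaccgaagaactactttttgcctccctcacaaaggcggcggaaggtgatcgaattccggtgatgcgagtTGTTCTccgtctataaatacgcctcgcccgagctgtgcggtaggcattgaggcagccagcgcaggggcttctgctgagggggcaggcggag
DRAIC: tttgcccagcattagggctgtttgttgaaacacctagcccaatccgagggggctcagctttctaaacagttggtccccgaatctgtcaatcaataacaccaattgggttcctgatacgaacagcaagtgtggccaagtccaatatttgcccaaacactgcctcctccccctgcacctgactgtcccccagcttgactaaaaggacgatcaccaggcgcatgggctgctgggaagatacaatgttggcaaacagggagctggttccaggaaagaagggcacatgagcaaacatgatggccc
PCAT6: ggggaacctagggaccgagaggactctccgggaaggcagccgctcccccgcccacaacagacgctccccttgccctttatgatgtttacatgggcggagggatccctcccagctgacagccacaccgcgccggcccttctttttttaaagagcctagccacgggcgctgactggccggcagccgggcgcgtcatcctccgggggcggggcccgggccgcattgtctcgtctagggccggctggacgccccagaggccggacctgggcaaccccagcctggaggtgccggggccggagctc
The PCGEM1 window had a GC content of 38.0% and 0 CpG dinucleotides, and that of DRAIC had 52.0% and 5. The PCAT6 window was GC-rich at 69.7% with 25 CpG, against a median over all windows of 58.7% and 14. The first MALAT1 window stood higher still, at 73.7% and 37 CpG, and the second at 46.0% and 14.

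Transcript levels were given as TPM, a share of all transcripts in a library. TPM values correct for transcript length, so that levels of different genes can be set side by side. The table holds no read depth, and the depth behind each value is unknown beyond the stated aim of about 40 M read pairs per library. A gene entered the tests when it reached 1 TPM in at least 2 libraries (16636 genes), and a fold change is given as log2(TPM + 1), which understates changes of low transcripts. A gene was called at a Benjamini-Hochberg adjusted p below 0.05 in limma. Replicates of equal number deviated together, so that a second fit with the replicate number as a block is quoted wherever it altered a call. The library ENZ.DHT replicate 1 stood apart for several nuclear RNAs, as described with MALAT1. Between 14652 and 15360 genes reached 1 TPM in a library, and mitochondrial transcripts took 14.73% to 22.27% of the total. The androgen reference genes KLK3, KLK2, TMPRSS2 and FKBP5 were all higher with DHT (4 of 4 called in limma), KLK3 having a mean of 38.5 TPM in VEH and 3262 TPM in DHT, and KLK2 and KLK3 are close copies whose shares of reads are uncertain. Luminal markers were abundant (KRT8 at 545.54 to 976.05 TPM, KRT18 at 451.64 to 908.09 TPM and FOLH1 at 646.72 to 1022.11 TPM). With DHT, KRT18 rose (log2 0.64, adjusted p = 0.00528, limma) and FOLH1 fell (-0.58, adjusted p = 0.0217). The basal markers KRT5 and TP63 did not exceed 0.16 TPM, KRT14 reached 1.68 TPM in DHT, PTPRC, PECAM1, COL1A2 and CHGA did not exceed 0.1 TPM, and SYP ran from 0.79 to 2.3 TPM. COL1A1, a collagen of fibroblasts, was measured at 11.44 to 32.55 TPM and fell with DHT by 1.07 on the log2 scale (adjusted p = 0.003568, limma), and its part in the results was not tested.

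The 8 lncRNAs spanned more than 3 orders of abundance. NEAT1 (mean 472.3 TPM) and MALAT1 (441.6 TPM) exceeded 98.6% and 98.5% of the tested genes in mean TPM. PCAT6 (13.2 TPM), DRAIC (7.63 TPM) and PCAT1 (6.04 TPM) lay in the middle of the range, at 52.7%, 41.2% and 37.0%. PCA3 averaged 0.953 TPM, while PCAT14 (0.292 TPM) and PCGEM1 (0.288 TPM) lay at the bottom. Thus 6 of the 8 were tested. PCGEM1 never reached 1 TPM, and PCAT14 did so in 1 library alone, DHT replicate 2. None of the 8 was listed at 0 in any library.

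**Figure D1:**
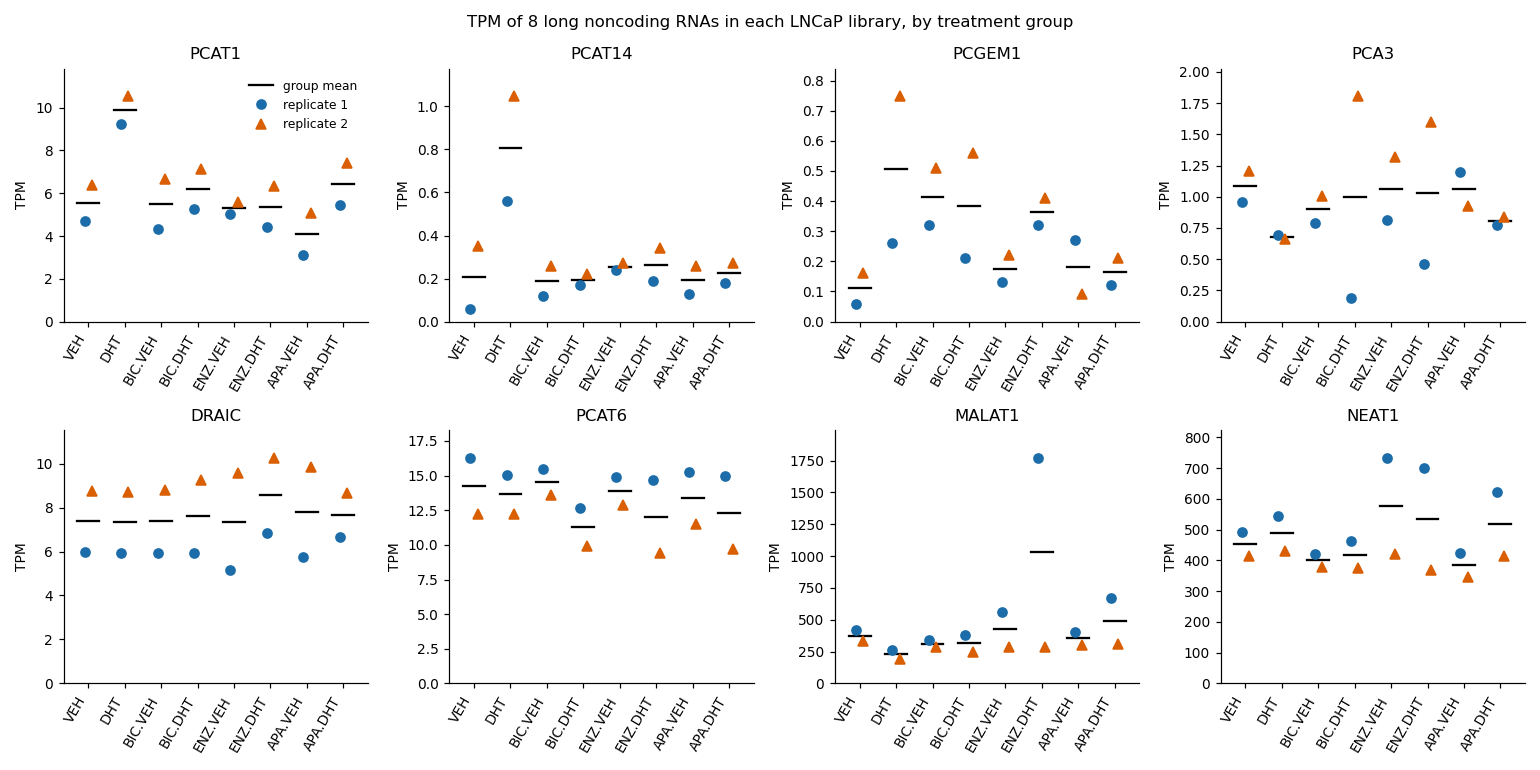
TPM of each lncRNA (vertical axes, linear from 0, a scale of its own in every panel) in the 8 treatment groups (horizontal axes), with circles for replicate 1, triangles for replicate 2 and a bar for the group mean. PCAT1 and PCAT14 stand highest in DHT, the DRAIC replicates are fully apart (5.15 to 6.85 and 8.66 to 10.27 TPM), and 1 library, ENZ.DHT replicate 1, carries the MALAT1 peak of 1773.43 TPM.

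PCAT1, a lncRNA reported to restrain DNA repair genes, showed the clearest relation to androgen. Its gene lies at chr8:127013154-127021014 (GRCh38.p14). The VEH libraries measured 4.69 and 6.39 TPM and the DHT libraries 9.23 and 10.56 TPM. Both DHT values were above every other library, the next highest being 7.41 TPM in APA.DHT replicate 2. With an antagonist added to DHT, the values were 5.24 and 7.12 TPM (BIC.DHT), 4.41 and 6.34 TPM (ENZ.DHT) and 5.47 and 7.41 TPM (APA.DHT), each group overlapping VEH. The log2 fold change of DHT against VEH was 0.75 (95% interval 0.16 to 1.33), and limma did not call it (adjusted p = 0.1037). With the replicate block it was called (SE 0.129, adjusted p = 0.001825). The differences from DHT were -0.61 for BIC.DHT, -0.79 for ENZ.DHT and -0.56 for APA.DHT, none called in limma (adjusted p = 0.3042, 0.08879 and 0.2207) and all called with the block (adjusted p = 0.01168, 0.001348 and 0.009429). Without the block, leaving out APA.DHT replicate 1 took the APA.DHT difference to -0.37. These 4 comparisons share the DHT libraries. Rescaling each library by its median ratio also brought PCAT1 past the threshold in DHT against VEH without the block (0.86, adjusted p = 0.04901, limma). In the block fit, leaving out 1 library kept the calls of DHT against VEH and of ENZ.DHT, whereas the BIC.DHT call was lost without DHT replicate 1 (adjusted p = 0.09639), BIC.DHT replicate 1 (0.08484) or BIC.DHT replicate 2 (0.08409), and the APA.DHT call without DHT replicate 1 (0.08746).

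Without DHT, PCAT1 measured 4.31 and 6.67 TPM in BIC.VEH, 5.05 and 5.6 TPM in ENZ.VEH and 3.12 and 5.08 TPM in APA.VEH. The APA.VEH mean of 4.1 TPM was the lowest of the 8 groups, yet its range overlapped that of VEH, and the log2 difference from VEH of -0.37 was -0.09 without APA.VEH replicate 1 and -0.65 without APA.VEH replicate 2. DHT against solvent in the presence of the antagonist gave 0.16 with BIC (interval -0.43 to 0.74), 0.00 with ENZ (-0.59 to 0.58) and 0.56 with APA (-0.02 to 1.14). Of the 3, only with APA were both DHT libraries above both solvent libraries, and limma called none of these (adjusted p = 1.0, 1.0 and 0.9618). The APA value ran from 0.28 without APA.VEH replicate 1 to 0.84 without APA.VEH replicate 2. Subtracting the DHT response without antagonist from that with it gave -0.59 for BIC, -0.75 for ENZ and -0.19 for APA. These contrasts were added after the data were seen. With the block, limma called the ENZ difference (adjusted p = 0.02704) and not those of BIC (0.09106) or APA (0.5647). Without the block it called none of them (lowest adjusted p = 0.4482). In the ordering of group means DHT (9.90 TPM) was separated from the rest, and all neighbouring groups from APA.DHT (6.44 TPM) down to APA.VEH overlapped. The nearest tested genes, CASC8 at 268.7 kb and LRATD2 at 454.7 kb, differed from each other. CASC8, another lncRNA, rose with DHT from a mean of 0.455 to 2.155 TPM (log2 1.10, adjusted p = 0.007437, limma). LRATD2 gave 0.17 (adjusted p = 0.6524).

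PCAT14, a lncRNA raised in many prostate tumours, was also highest in DHT, at a far lower level than PCAT1. It measured 0.06 and 0.35 TPM in VEH and 0.56 and 1.05 TPM in DHT. The 12 libraries with an antagonist measured 0.12 to 0.34 TPM, below both DHT libraries. Since it failed the filter, it has no value in the main test. With every gene above 0 kept, its log2 fold change in DHT against VEH was 0.58 (interval 0.26 to 0.90, adjusted p = 0.05038, limma). That fit did not call it, nor BIC.DHT (adjusted p = 0.09098, limma), ENZ.DHT (0.0913) or APA.DHT (0.07224) against DHT. With the block added to that fit, a setting added after the data were seen, it was called (adjusted p = 0.003283, limma). So were BIC.DHT (-0.58, adjusted p = 0.007041), ENZ.DHT (-0.50, 0.006657) and APA.DHT (-0.55, 0.00473) against DHT. In those fits 12.5%, 5.3%, 12.5% and 11.5% of the 34203 genes were called, and PCAT1 and PCAT14 were the 2 of the 8 lncRNAs called in each. The gene lies at chr22:23538102-23547306 and overlaps a predicted coding gene, LOC124900476. A value this low rests on few reads, and its counting error is not known here.

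PCGEM1 (chr2:192749845-192776899), the transcript with TGTTCT in its window above, was the faintest of the set together with PCAT14. It measured 0.06 and 0.16 TPM in VEH against 0.26 and 0.75 TPM in DHT. These groups did not overlap, but BIC.VEH, at 0.32 and 0.51 TPM and without hormone, lay within the DHT range. The remaining groups ran from 0.09 TPM (APA.VEH replicate 2) to 0.56 TPM (BIC.DHT replicate 2). Without the filter, DHT against VEH gave 0.42 (interval 0.06 to 0.79, adjusted p = 0.2147, and 0.07991 with the block, limma), and 0 of the 3 antagonist comparisons with DHT were called (adjusted p with the block 0.1452 to 0.8035). A ribosomal protein pseudogene, RPS17P8, overlaps its annotated span.

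PCA3 lies at chr9:76764436-76787569, inside and antisense to PRUNE2. It was low and noisy in these cells. VEH measured 0.96 and 1.21 TPM and DHT 0.69 and 0.66 TPM, so that both hormone libraries were lower. The log2 difference was -0.31 with an interval of -1.10 to 0.48 (adjusted p = 0.6372, limma). The replicates of BIC.DHT, at 0.19 and 1.81 TPM, were the lowest and the highest of all 16 libraries. ENZ.DHT measured 0.46 and 1.6 TPM. APA.DHT measured 0.77 and 0.84 TPM, above both DHT libraries and below both VEH libraries. The group of highest mean, VEH (1.085 TPM), and the 6 groups below it overlapped from neighbour to neighbour, and DHT stood below APA.DHT without overlap.

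The host gene PRUNE2, a coding gene, was far more abundant. It measured 232.55 and 259.3 TPM in VEH and 143.66 and 162.98 TPM in DHT, a difference of -0.68 (adjusted p = 0.08425, and 0.009941 with the block, limma). With an antagonist beside DHT it measured 171.6 to 298.45 TPM, all above both DHT libraries. The libraries were stranded, but the sources used here do not state that counting used strand. Without it, reads from any stretch where transcripts of PCA3 and PRUNE2 overlap could not be told apart. GCNT1, 257.0 kb away, gave 0.45 (adjusted p = 0.6948).

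For DRAIC (chr15:69561720-69571440) no treatment difference was detected. Its means ran from 7.325 TPM in DHT to 8.56 TPM in ENZ.DHT, and all neighbouring groups in that order overlapped. VEH measured 6.0 and 8.75 TPM and DHT 5.94 and 8.71 TPM, so that the log2 difference was -0.01 (interval -0.79 to 0.77, and -0.27 to 0.26 with the block). It turned to 0.11 under median-ratio scaling and to 0.02 without mitochondrial genes. In contrast, the replicates were fully separated: replicate 1 ranged from 5.15 to 6.85 TPM and replicate 2 from 8.66 to 10.27 TPM over the 8 groups. Of the neighbours, KIF23, a kinesin of dividing cells 113.3 kb away, measured a mean of 4.02 TPM in VEH and 12.7 TPM in DHT (log2 1.54, adjusted p = 0.2762, and 0.0001694 with the block, limma). The ribosomal protein gene RPLP1, 105.5 kb away, gave -0.28 (adjusted p = 0.5392).

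PCAT6 (chr1:202810954-202811912), whose GC-rich window is printed above, was the steadiest of the set, its highest library being 1.74 times its lowest. VEH measured 16.3 and 12.22 TPM and DHT 15.06 and 12.22 TPM, a log2 difference of -0.05 (interval -0.62 to 0.51) that became 0.07 under median-ratio scaling. BIC.DHT had the lowest mean, with 12.67 and 9.91 TPM, both below the BIC.VEH libraries of 15.44 and 13.59 TPM (log2 -0.34, adjusted p = 1.0, and 0.9746 with the block, limma), a difference that ran from -0.51 to -0.18 when 1 library was left out. Replicate 1 was the higher library in all 8 groups. KDM5B, a histone demethylase gene that lies 2.5 kb away, measured a mean of 52.2 TPM in VEH and 29.9 TPM in DHT (log2 -0.78, adjusted p = 0.06784, and 0.007594 with the block, limma), and RABIF gave -0.15 (adjusted p = 0.6349).

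MALAT1 (chr11:65497738-65506516) was lowest with DHT. VEH measured 416.13 and 333.23 TPM and DHT 266.1 and 192.45 TPM, so that both hormone libraries were below both VEH libraries. The log2 difference was -0.72 with a wide interval (-2.20 to 0.77, adjusted p = 0.5511, and 0.2677 with the block, limma). BIC.DHT measured 382.39 and 246.42 TPM and overlapped DHT (log2 0.44, and 0.12 without BIC.DHT replicate 1 or 0.75 without BIC.DHT replicate 2). APA.DHT measured 673.98 and 308.9 TPM, both above DHT (log2 1.01, adjusted p = 0.3811, and 0.1212 with the block, limma), a difference of 0.45 without APA.DHT replicate 1 and 1.57 without APA.DHT replicate 2. ENZ.DHT measured 1773.43 and 288.65 TPM, the first of these being 5.52 times the median of the 16 libraries. The difference of ENZ.DHT from DHT was 1.66 (adjusted p = 0.1478) and was called with the block (adjusted p = 0.01863, limma). Without ENZ.DHT replicate 1 it was 0.35 (adjusted p = 0.7855) in the main test and 0.65 (0.09636) with the block, and without ENZ.DHT replicate 2 it was 2.96 (0.006959). It was also lost from the block fit without DHT replicate 1 (1.44, 0.125) or DHT replicate 2 (1.88, 0.05102), and when the filter was dropped (0.06114). The size of the difference thus rested on the library that stood apart. In the order of group means, DHT (229.3 TPM) lay below BIC.VEH (312.3 TPM) without overlap, and all other neighbours overlapped.

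That library also gave the highest values of 5 other RNAs, a set picked after their values were seen. RN7SK, the RNA polymerase III transcript that holds back transcription elongation, measured 229.06 TPM there against a median of 18.9 TPM. RPPH1, the RNA of ribonuclease P, measured 34.7 TPM against 2.87 TPM, and RMRP, the RNA of the related ribonuclease MRP, 32.1 TPM against 2.91 TPM. The mitochondrial ribosomal RNAs MT-RNR1 and MT-RNR2 were 2.01 and 1.41 times their medians. The cytosolic RNAs RN7SL1 and RN7SL2, of the signal recognition particle, were near theirs (1.24 and 1.03 times). These RNAs have no usual poly(A) tail, apart from short tails on the mitochondrial RNAs, and the MALAT1 transcript ends in a triple helix in place of one, whereas the libraries were selected for polyadenylated RNA. APA.DHT replicate 1, second for MALAT1, was at 1.07, 0.92 and 0.58 times the median for RN7SK, RPPH1 and RMRP, and APA.VEH replicate 2, second for all 3, had 301.0 TPM of MALAT1, below its median of 321.1 TPM. The part of these levels in the MALAT1 result was not tested.

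**Figure D2:**
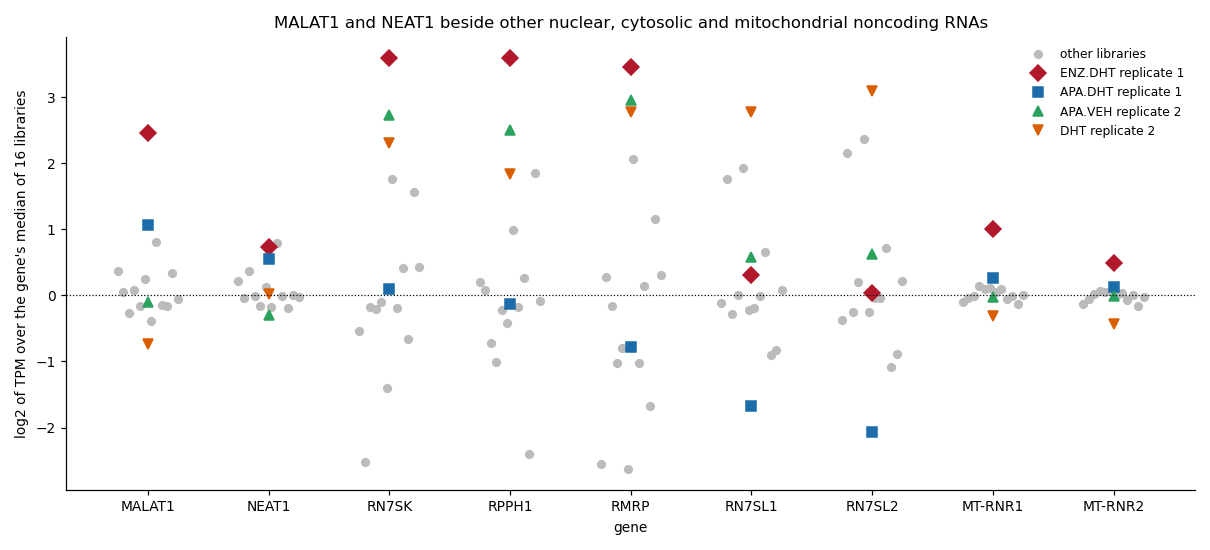
Log2 ratio of TPM to the gene's own median over the 16 libraries (vertical axis) for MALAT1, NEAT1 and 7 other noncoding RNAs (horizontal axis), each point a library and the libraries named in the legend in colour. ENZ.DHT replicate 1 is the highest point for MALAT1, RN7SK, RPPH1, RMRP, MT-RNR1 and MT-RNR2 but not for NEAT1, RN7SL1 or RN7SL2.

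NEAT1 (chr11:65422798-65445540) has a short polyadenylated form and a long form without a tail, which gene-level values do not separate. Its values in VEH and DHT overlapped. VEH measured 493.82 and 413.25 TPM and DHT 544.93 and 430.67 TPM (log2 0.10, interval -0.62 to 0.82, adjusted p = 0.8903, limma). With the antagonists beside DHT the differences were -0.22 (BIC), 0.07 (ENZ) and 0.07 (APA), with adjusted p of 0.8313 to 0.9251 in limma. The highest libraries were ENZ.VEH replicate 1 (734.64 TPM), ENZ.DHT replicate 1 (700.78 TPM) and APA.DHT replicate 1 (621.96 TPM), and each of these stood over a replicate 2 at 421.51, 370.52 and 415.73 TPM. All neighbouring groups in the order of means, from ENZ.VEH (578.1 TPM) to APA.VEH (384.8 TPM), overlapped. Near the MALAT1 and NEAT1 loci, LTBP3, which encodes a binding protein of latent TGF-beta, fell with DHT from a mean of 174.1 to 67.8 TPM (log2 -1.35, adjusted p = 0.01576, limma), while FRMD8 (0.09) and SLC25A45 (-0.04) were not called (adjusted p = 0.7807 and 0.9395).

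Across the set, limma called 0 of the 6 tested lncRNAs in each of the 4 comparisons that involve DHT without antagonist. Over all tested genes it called 10.3% in DHT against VEH, 3.13% in BIC.DHT against DHT, 9.65% in ENZ.DHT against DHT and 8.36% in APA.DHT against DHT. At an unadjusted p below 0.05 there were 1, 1, 2 and 0 of the 6 lncRNAs, where 25.1%, 15.1%, 26.3% and 24.7% of all tested genes were. The median log2 fold change of the 6 was -0.03, -0.09, 0.14 and 0.07, beside -0.10, 0.00, -0.01 and 0.00 for all tested genes. The median shift of -0.10 in DHT against VEH became 0.01 under median-ratio scaling, which also turned the split of the calls from 604 higher and 1105 lower to 1046 and 860. With the replicate block 1, 1, 2 and 1 of the 6 were called, where 27.4%, 13.3%, 29.2% and 27.3% of all tested genes were. These shares of lncRNAs stood near the background and are no result about the set.

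**Figure D3:**
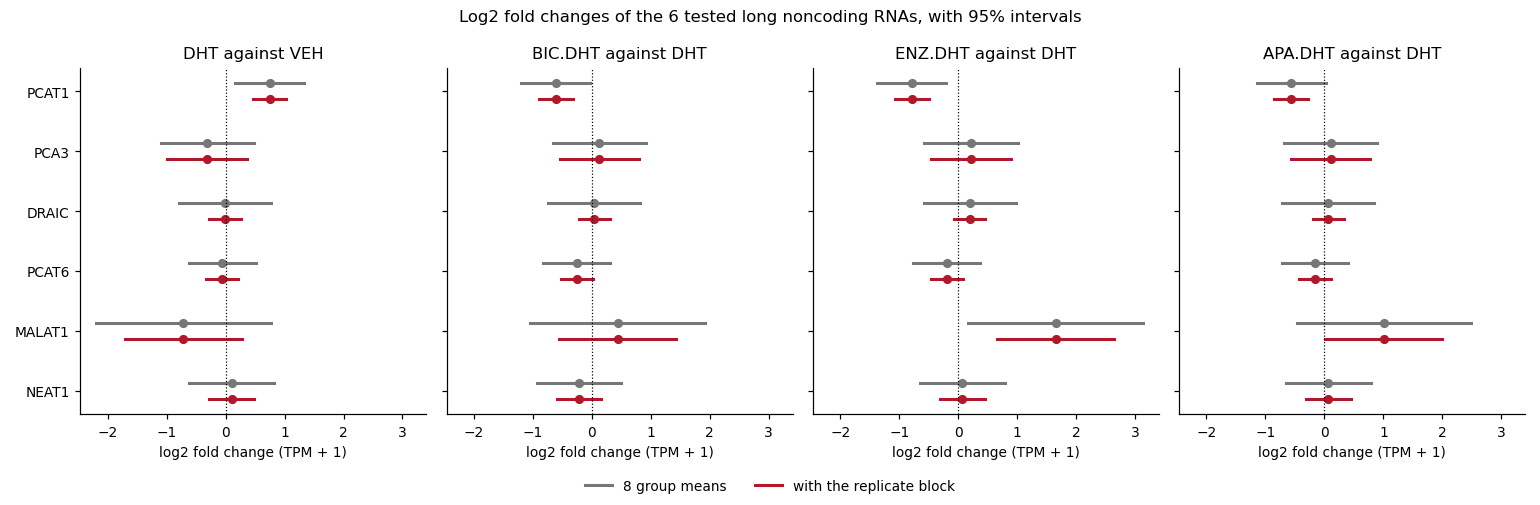
Log2 fold changes on the log2(TPM + 1) scale (horizontal axes) of the 6 tested lncRNAs (vertical axis) in 4 comparisons, with 95% intervals, in grey from the fit of 8 group means and in red with the replicate block. The PCAT1 intervals with the block exclude 0 in all 4 panels, and MALAT1 has the widest intervals.

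The antagonists alone were without a call in this set, but the fit without the block also missed large changes. KLK3 had a mean of 38.5 TPM in VEH and 281.9 TPM in BIC.VEH (log2 2.89), called only with the block (adjusted p = 0.03453, limma). DHT against solvent with APA gave 2.77 for KLK3, also called only with the block (adjusted p = 0.01794, limma). A missing call is therefore no sign that a level was unchanged. In BIC.VEH, ENZ.VEH and APA.VEH against VEH, limma called 0 of 6 lncRNAs with or without the block, with adjusted p of 1.0 throughout, and 0.0%, 0.0% and 0.00601% of all tested genes were called without it. At an unadjusted p below 0.05 there were 0 lncRNAs without the block and 1 with it, PCAT1 in APA.VEH (-0.37, interval with the block -0.66 to -0.09). Over all tested genes the shares in BIC.VEH, ENZ.VEH and APA.VEH were 1.17%, 0.836% and 0.908% without the block and 3.24%, 2.9% and 2.4% with it. NEAT1 had the largest rise in value, 0.30 in ENZ.VEH (interval -0.42 to 1.02). DHT against solvent within BIC, ENZ and APA also gave 0 calls by either fit (0.0%, 0.00601% and 0.00601% of all genes in limma without the block). The unadjusted count was 0 in each without the block, and 1, 0 and 2 with it (PCAT6 with BIC, PCAT1 and NEAT1 with APA). Over all tested genes the unadjusted shares were 1.41%, 3.25% and 2.45% without the block and 4.62%, 9.55% and 6.96% with it.

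Antagonists at equal dose and time were compared in 3 pairs in the presence of DHT. None of the 6 lncRNAs was called in any pair by limma with or without the block, nor was any below an unadjusted p of 0.05 without it, while 0.00601%, 0.0% and 0.00601% of all genes were called in ENZ.DHT against BIC.DHT, APA.DHT against BIC.DHT and APA.DHT against ENZ.DHT. With the block, 1 lncRNA had an unadjusted p below 0.05, MALAT1 in ENZ.DHT against BIC.DHT. Over all tested genes the unadjusted shares in the 3 pairs were 3.4%, 2.9% and 0.613% without the block and 12.4%, 9.88% and 1.39% with it. For PCAT1, ENZ.DHT minus BIC.DHT was -0.18 (interval -0.76 to 0.41), APA.DHT minus BIC.DHT 0.05 (-0.53 to 0.64) and APA.DHT minus ENZ.DHT 0.23 (-0.36 to 0.81). Leaving out 1 library moved the last from 0.01 (without ENZ.DHT replicate 1) to 0.45 (without ENZ.DHT replicate 2). The thiohydantoins thus did not differ detectably from each other or from bicalutamide, within intervals that still allow a difference of up to 0.81. For MALAT1 the same differences were 1.22 (-0.26 to 2.7), 0.57 (-0.91 to 2.05) and -0.65 (-2.13 to 0.83), and the first and last rest on ENZ.DHT replicate 1, without which they became -0.09 and 0.66. The second was 0.01 without APA.DHT replicate 1 and 1.13 without APA.DHT replicate 2, and ranged between these when either BIC.DHT library was left out.

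The interaction of antagonist and DHT, likewise added after the data were seen, was called for few lncRNAs. In the block fit 0, 1 and 0 of the 6 were called with BIC, ENZ and APA, where 6.39%, 9.91% and 10.1% of all genes were. The single call was that of PCAT1 with ENZ given above. By far the most regular difference was the one between replicates. Replicate 2 was the higher library in all 8 groups for DRAIC, PCAT1 and PCAT14, and replicate 1 in all 8 for PCAT6, MALAT1 and NEAT1. The replicate term of the block fit, examined after the data were seen, was called for 5 of the 6 tested lncRNAs, where 40.2% of all genes were called. It was 0.54 for DRAIC (adjusted p = 7.039e-05, limma), 0.37 for PCAT1, -0.36 for PCAT6, -0.85 for MALAT1 and -0.46 for NEAT1, and PCA3 gave 0.33 (adjusted p = 0.1116). What the replicate number stands for, beyond a biological replicate, is not given in the labels.

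**Figure D4:**
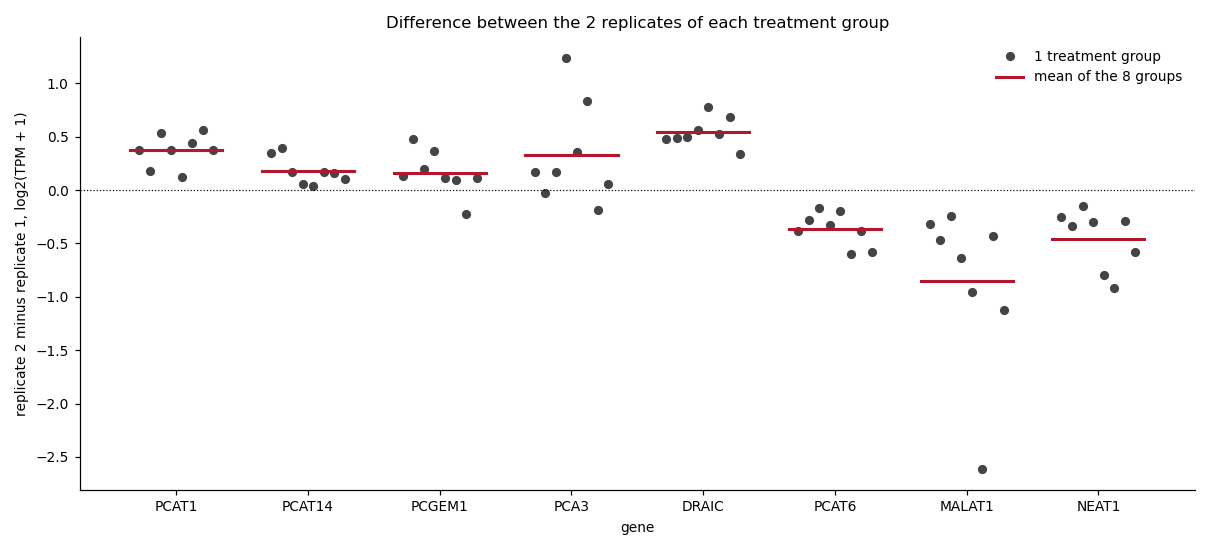
Replicate 2 minus replicate 1 in log2(TPM + 1) (vertical axis) for the 8 lncRNAs (horizontal axis), a point per treatment group and a bar for the mean of the 8 groups. All 8 points lie above 0 for PCAT1, PCAT14 and DRAIC and below 0 for PCAT6, MALAT1 and NEAT1, whose lowest points are in ENZ.DHT, at -2.61 for MALAT1.

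Other lncRNAs and the proteins of the nuclear bodies were counted from lists chosen with earlier results of these data known. Of 17 further prostate or androgen lncRNAs, 14 were in the table, PCAT2, PCAT29 and POTEF-AS1 were not, and 8 were tested. ARLNC1, an androgen-induced lncRNA, was the 1 called in DHT against VEH, but it passed the filter through its DHT libraries alone, so that it had to differ and is described without a test. It measured 0.22 and 0.19 TPM in VEH, 3.63 and 3.64 TPM in DHT and no more than 0.36 TPM in any library with an antagonist. Its log2 difference was 1.94 for DHT against VEH and -1.95, -1.99 and -1.99 for BIC.DHT, ENZ.DHT and APA.DHT against DHT. SOCS2-AS1 was lower in APA.DHT than in DHT (-0.77, adjusted p = 0.03659, limma), with values of 1.98 and 1.13 TPM in DHT and 0.59 and 0.37 TPM in APA.DHT. The median of the 8, with ARLNC1 counted among them, was 0.32 in DHT against VEH, beside -0.10 for all tested genes. It is given as a description. With the block 2 of the 8 were called higher (ARLNC1 and TMPO-AS1) and 1 lower (TRPM2-AS) in that comparison. Over all tested genes 10.3% were called there without the block and 27.4% with it. Against DHT the block fit called TRPM2-AS higher and TMPO-AS1 lower in ENZ.DHT and APA.DHT, where it called 29.2% and 27.3% of all tested genes. SCHLAP1, a lncRNA of aggressive prostate cancer, was not called and ranged from 15.6 to 20.83 TPM over the 16 libraries.

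Of 26 widely expressed lncRNAs, 24 were tested and 0 called in each of the 4 comparisons with DHT by limma, with a median of 0.08 in DHT against VEH. With the block 1 was higher (SNHG16) and 4 lower (EPB41L4A-AS1, FTX, JPX and SNHG29) in that comparison, or 5 of 24, where the block fit called 27.4% of all tested genes. Of 14 paraspeckle proteins, the partners of NEAT1, DAZAP1 alone was called with DHT (log2 0.61, adjusted p = 0.03268, means 57.2 TPM in VEH and 87.2 TPM in DHT), and it was lower in ENZ.DHT than in DHT (-0.59, adjusted p = 0.04004). With the block RBM14 and TAF15 were also higher and NONO lower with DHT, or 4 of 14 in all, near the 27.4% of all tested genes. Against DHT the block fit called 1, 7 and 6 of the 14 lower in BIC.DHT, ENZ.DHT and APA.DHT and 0 higher. It called 13.3%, 29.2% and 27.3% of all tested genes there in both directions together, with 1134, 2652 and 2348 of the 16636 lower. Of 14 nuclear speckle proteins, which share their compartment with MALAT1, 0 were called in DHT against VEH, and with the block SRSF1 and SRSF7 were higher and SRSF11 lower, or 3 of 14 against the same 27.4%. Against DHT the block called 0 of them in BIC.DHT, 2 higher and 4 lower in ENZ.DHT, and 3 higher and 4 lower in APA.DHT. The shares of all tested genes called there were the same 13.3%, 29.2% and 27.3%. MKI67, the marker of dividing cells, measured 2.18 and 9.28 TPM in VEH (mean 5.73 TPM) and 11.68 and 24.39 TPM in DHT (mean 18.0 TPM). The log2 difference was 1.65 (adjusted p = 0.3645, and 0.002136 with the block, limma). In every group replicate 2 was the higher MKI67 library.

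The genes most alike to each lncRNA were found by Pearson's r of log2(TPM + 1) over the 16 libraries, which share treatment groups, replicate numbers and library effects, and r is given as a description. PCAT1 was nearest to DBF4B (r = 0.933), METTL3 (0.932) and GGCT (0.93). DRAIC was nearest to AC104809.2 (0.971), the elongation factor pseudogene EEF1B2P3 (0.967) and RPS3 (0.961), a ribosomal protein gene that shares reads with its pseudogenes. PCAT6 was nearest to CEBPD (0.906), CLTB (0.903) and B4GALT7 (0.901), and PCA3 to AC093840.1 (0.829), LYSMD1 (0.826) and RPL7P23 (0.819). For MALAT1 the nearest were PLA2G4B (0.935), TBC1D3L (0.931) and NPIPA5 (0.928), of which TBC1D3L and NPIPA5 belong to families of near-identical copies, and for NEAT1 SLC26A6 (0.954), ZNF577 (0.936) and RBCK1 (0.93). Among the lncRNAs themselves, r was highest between MALAT1 and NEAT1 (0.754) and lowest between DRAIC and PCAT6 (-0.791), the pair with opposite replicate differences.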

How the data were processed

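RNA was measured by poly(A)-selected, stranded RNA sequencing (125 bp paired reads) of 16 LNCaP libraries, 2 per treatment group. Per the labels and the study's methods, the authors checked reads with FastQC 0.11.9, trimmed them with Trim Galore 0.6.5, aligned them to GRCh38 with STAR 2.7.2b and quantified genes with RSEM 1.3.3. The deposited values are TPM per gene symbol and library, without pooling. TPM fixes the total of each library, so abundant transcripts lower the others, and it keeps no read depth. The table had 0 columns of other samples.

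Groups and replicate numbers came from the labels. Genes with TPM of at least 1 in 2 or more libraries were fitted on log2(TPM + 1) with limma 3.58.1 (trend) in R 4.3.3, with 8 group means over all 16 libraries, with Benjamini-Hochberg adjustment within each of 13 comparisons. The alternative with the replicate number as a block was kept beside it because the numbers paired the samples: deviations of equal numbers correlated above 0.1 in 28 of 28 pairs of groups (lowest r 0.2041, median 0.4269). Other alternatives were a pseudocount of 0.1, no filter, median-ratio scaling, removal of mitochondrial genes, only the groups compared, and each library left out. The fit was tested on simulated data. Genes are named by rule: all 8 lncRNAs, KLK3, KLK2, TMPRSS2, FKBP5 and MKI67 as references, the 2 nearest tested genes (1 of which is not reported here) and the 3 with the highest r per tested lncRNA, and from each list up to 3 called in DHT against VEH in each direction; SOCS2-AS1, SCHLAP1, genes called only with the block and the RNAs set beside MALAT1 were chosen after their values were seen. The lncRNAs and lists were chosen with earlier results of these data known. Positions and promoter windows are from RefSeq (GRCh38.p14).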

Additional observations from a re-analysis of the deposited data

Results flagged for a closer look

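Differences between DHT responses with and without an antagonist, contrasts added after the data were seen, were the results that stood out. The PCAT1 difference between DHT and solvent was 0.75 without antagonist and 0.00 with ENZ, and subtracting the first from the second gave -0.75 on the log2 scale (adjusted p = 0.02704 in limma with the replicate block and 0.4482 without it). For 3 other pairs, both replicates had one sign with DHT alone and the other sign with the antagonist present, and limma with the block called none of these differences. They were 1.1 for MALAT1 with APA (adjusted p = 0.3088), 0.23 for DRAIC with ENZ (0.4379) and -0.23 for NEAT1 with ENZ (0.6041). With DHT alone the DRAIC replicates differed from VEH by only -0.012 and -0.006, so that their sign carries little meaning. The MALAT1 difference between DHT and solvent with APA was 0.729 in replicate 1 and only 0.037 in replicate 2. That of NEAT1 was 0.142 and 0.059 without antagonist and -0.068 and -0.186 with ENZ, so that small values set the sign there too. Groups of 2 libraries are too small for the test of single outlying values, which was not run.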

How the results depend on the processing

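Without the block no lncRNA was called in any of the 13 comparisons (limma, 8 group means). The lncRNAs called with the replicate block numbered 1, 1, 2 and 1 in DHT against VEH and in BIC.DHT, ENZ.DHT and APA.DHT against DHT. They numbered the same with median-ratio scaling added to the block, and 2 in each with the block and no filter. Both of these joint settings were added after the data were seen. Median-ratio scaling alone gave 1 in DHT against VEH. Leaving out 1 library gave 0 or 1 without the block and 0 to 2 with it, a lone remaining sample being assumed to vary like the other groups. The block changed no other call on the lncRNAs in the 13 comparisons, and it raised the calls over all genes from 1709 to 4559, 521 to 2216, 1605 to 4863 and 1391 to 4545. Of 457 alternative values of 35 fold changes, 36 changed sign. None of the 35 was called in the main fit, so that these sign changes could only be of values not called there. DRAIC in DHT against VEH became 0.11 with median-ratio scaling, with or without the block, and 0.02 without mitochondrial genes. PCAT6 became 0.07 with that scaling, with or without the block, and PCA3 in BIC.DHT -0.06 with a pseudocount of 0.1. Leaving out 1 library moved DRAIC from -0.25 to 0.23 (DHT against VEH), from -0.24 to 0.32 (BIC.DHT), from -0.06 to 0.46 (ENZ.DHT) and from -0.18 to 0.31 (APA.DHT). PCA3 ran from -0.49 to 0.75 (BIC.DHT) and from -0.20 to 0.63 (ENZ.DHT), and PCAT6 from -0.25 to 0.14, -0.49 to 0.11 and -0.45 to 0.13 (DHT against VEH, ENZ.DHT and APA.DHT). NEAT1 ran from -0.07 to 0.27 (DHT against VEH), -0.39 to 0.53 (ENZ.DHT), -0.22 to 0.36 (APA.DHT) and -0.10 to 0.70 (ENZ.VEH). MALAT1 ran from -0.48 to 2.13 (ENZ.DHT against ENZ.VEH), -0.09 to 2.53 (ENZ.DHT against BIC.DHT) and -1.96 to 0.66 (APA.DHT against ENZ.DHT). Without ENZ.DHT replicate 1 and with the block, the first of these was -0.18 and the last 0.36. PCAT1 ran from -0.40 to 0.04 (ENZ.DHT against BIC.DHT) and -0.14 to 0.24 (APA.DHT against BIC.DHT). The cause was not tested. Values near or under 1 TPM (PCA3, PCAT14, PCGEM1) are limited by a depth that the table does not give.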
